A study of Mus musculus with 6 samples.

Results

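The 10 genes described here encode the contractile apparatus of smooth muscle and of myoepithelial cells, and a receptor that drives it: Acta2, Actg2, Myh11, Myl9, Mylk, Cnn1, Tagln, Lmod1, Des and Oxtr. They were chosen by symbol from a list of contractile genes, and all 10 were found among the 24054 gene rows of the count table. The table holds messenger RNA counts from salivary glands of 3 control and 3 K5-RANKL libraries, each made from a pool of 5 mice. K5-RANKL mice carried K5-rtTA and TetO-RANKL transgenes: the keratin 5 promoter drives a doxycycline-dependent activator, and the activator switches on RANKL, a cytokine of the TNF family. Controls were monogenic, per the labels, without word on which transgene was theirs. Both groups were given doxycycline for 2 weeks, starting when the mice were 9 weeks old. Strain, sex and gland type (parotid, submandibular or sublingual) are also not stated. All p-values measure the spread from pool to pool.

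Myoepithelial cells are epithelial cells that wrap around the acini and the smallest ducts of salivary glands and contract to help expel saliva. They combine basal keratins such as keratin 5 and keratin 14 with smooth muscle actin and myosin, so the promoter that drives the transgene is itself used by these cells. Smooth muscle of blood vessels makes much of the same apparatus. Contraction starts when calcium and calmodulin activate myosin light chain kinase, which phosphorylates the regulatory light chain of myosin. Serum response factor, with its myocardin-family partners, drives many of these genes through a promoter element called the CArG box.

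Library totals lay between 13875951 and 17921815 counts. In each library, the 20 genes with most counts together took 65.9% ± 1.28 of control counts and 34.8% ± 3.77 of K5-RANKL counts (SD, n = 3 each). Levels are given as CPM, a gene's counts relative to its library size, the sizes being adjusted by the TMM method (trimmed mean of M values). With unscaled library totals the median over all tested genes moved from 0.01 to 1.01 log2, so every direction below is relative to the TMM scale unless library totals are named. Tnfsf11, which encodes RANKL, had at most 3.78 CPM in a control and at least 404.8 CPM in a K5-RANKL library. The counts come from whole gland, where fewer cells of a type and less RNA per cell cannot be told apart.

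Promoter sequences from RefSeq (GRCm38.p6) were matched for 7 of the 10 genes, and not for Myh11, Tagln and Actg2. For the 7, the 250 bases before each annotated start were searched for the CArG box. The pattern is its own reverse complement, so a single search covers both strands. Myl9 was the only gene of the 7 with a full match, 161 bases before the annotated start used, where 1.47% of 32851 promoters hold one. Acta2, Myl9 and Lmod1 had matches with 1 letter changed, which 17.5% of promoters hold. The stretches below show these matches and the window of Des, which rose and had neither kind of match there. Tagln, the other gene that rose, was not searched, so a link between matches and direction was not tested. Capitals mark full matches and matches with 1 letter changed, and binding was not measured in these data.
Acta2, chr19:34255438-34255467, minus strand: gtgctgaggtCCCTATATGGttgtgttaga
Acta2, chr19:34255388-34255417, minus strand: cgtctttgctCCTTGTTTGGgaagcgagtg
Myl9, chr2:156775214-156775407, plus strand: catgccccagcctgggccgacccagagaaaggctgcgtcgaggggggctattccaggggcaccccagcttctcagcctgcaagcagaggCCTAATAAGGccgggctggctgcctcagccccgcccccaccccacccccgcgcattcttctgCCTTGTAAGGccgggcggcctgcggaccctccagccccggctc
Lmod1, chr1:135324563-135324806, plus strand: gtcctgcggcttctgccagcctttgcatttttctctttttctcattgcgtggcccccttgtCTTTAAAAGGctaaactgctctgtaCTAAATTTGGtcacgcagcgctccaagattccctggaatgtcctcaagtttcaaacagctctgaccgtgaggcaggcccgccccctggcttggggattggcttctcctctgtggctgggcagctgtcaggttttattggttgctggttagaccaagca
Des, chr1:75360042-75360291, plus strand: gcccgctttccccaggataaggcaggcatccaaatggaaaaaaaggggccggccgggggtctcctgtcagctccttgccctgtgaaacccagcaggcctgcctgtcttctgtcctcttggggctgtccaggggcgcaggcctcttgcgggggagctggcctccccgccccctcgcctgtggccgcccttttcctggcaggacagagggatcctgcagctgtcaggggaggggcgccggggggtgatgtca
Both Acta2 matches, 84 and 34 bases before the RefSeq start used, have their changed letter inside the A/T centre. So does the second of Myl9, 99 bases before the start used for it. The matches of Lmod1, 189 and 164 bases before its start, have it in the opening pair of C. GENCODE places the first exon of an Acta2 transcript from 34255290 to 34255590, so the 2 Acta2 stretches lie within that annotated exon. The windows of Cnn1, Mylk and Oxtr held no match of either kind. Those of Mylk (chromosome 16, 34784700 to 34784949) and Oxtr (chromosome 6, 112489826 to 112490075) lie inside the gene spans given below. Sequence before the outer start of the Mylk and Oxtr spans was not searched. The windows of Acta2, Myl9 (ending at 156775463) and Cnn1 (ending at 22099252) lie partly inside their spans. In the counts, genes with a match in the searched window (Acta2, Myl9 and Lmod1) and without one there (Cnn1, Mylk and Oxtr) fell.

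The contractile genes did not move as a block. Of the 10 genes, all of which passed the filter on low counts, 6 fell (Acta2, Cnn1, Lmod1, Myl9, Mylk and Oxtr), 2 rose (Des and Tagln) and 2 did not pass (Actg2 and Myh11), by edgeR at an adjusted p under 0.05. Among all 14044 genes tested 32.1% fell and 34.2% rose, 66.2% in either direction. The median log2 fold change was -0.33 over the 10 genes and 0.01 over all genes tested, with single genes between -1.21 and 1.08. The control and K5-RANKL libraries did not overlap for 5 lower genes and 2 higher genes, where 34.1% and 36.3% of all genes tested were separated in these directions, 70.4% in all. By library totals 7 genes rose, 0 fell and 3 missed the threshold, the median being 0.67 against 1.01 for all genes, while 83.5% of all genes rose and 4.97% fell, 88.5% together.

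**Figure D1:**
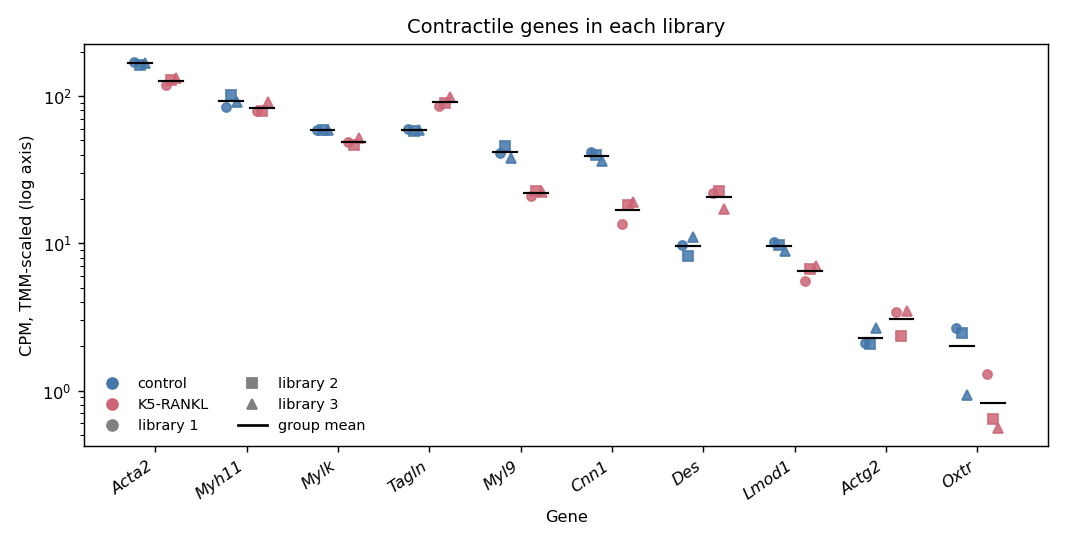
Level of the 10 contractile genes (CPM, TMM-scaled, log axis), with a point for each of the 3 control and 3 K5-RANKL libraries and a black bar at each group mean. Acta2 is highest in both groups, Tagln and Des sit higher in K5-RANKL libraries, and Cnn1 and Myl9 sit lower with no overlap. By library totals Myl9 is at 0.09 log2 and not called.

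Acta2 encodes smooth muscle alpha actin, the thin filament protein by which myoepithelial cells are usually recognised. It spans 34240336 to 34255585 on chromosome 19 (Entrez 11475). The control libraries held 169, 163 and 167 CPM, against 118, 128 and 133 CPM with RANKL induced. Every K5-RANKL library was below every control library. The mean went from 166 ± 3.47 to 127 ± 7.77 CPM (SD, n = 3 each), a log2 fold change of -0.39 (SE 0.07), and the fall passed the test (edgeR adjusted p = 0.000124). By library totals Acta2 stood at 0.60 and was called higher.

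Actg2 encodes the gamma smooth muscle actin best known from the gut (Entrez 11468, chromosome 6 from 83512909 to 83536251). The controls held 2.12, 2.06 and 2.66 CPM and the K5-RANKL libraries 3.40, 2.35 and 3.45 CPM. K5-RANKL 2 lay inside the control range, and the other K5-RANKL libraries lay above it. The log2 fold change was 0.43 (95% interval -0.05 to 0.90, edgeR adjusted p = 0.107), and 0.57 without K5-RANKL 2 (edgeR adjusted p = 0.0286). By library totals Actg2 stood at 1.43 and was called higher. The annotated transcripts of Acta2 and Actg2 share no identical window of 50 bases (0% of windows in GENCODE M21).

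The myosin genes differed from each other. Myh11, the smooth muscle myosin heavy chain (Entrez 17880, chromosome 16 from 14194527 to 14292188), was at 84.7, 101 and 90.4 CPM in controls. With RANKL induced it was at 79.4, 79.1 and 90.5 CPM, and the groups overlapped. Its log2 fold change was -0.15 (95% interval -0.33 to 0.03, edgeR adjusted p = 0.121). The value of Acta2, -0.39, lay outside this interval, but the 95% interval of Acta2, -0.55 to -0.24, overlapped it. Without control 1 Myh11 stood at -0.21 and was called (edgeR adjusted p = 0.0396), and by library totals it stood at 0.85 and was called higher.

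Myl9 encodes the regulatory light chain that Mylk phosphorylates, and it was lower in every K5-RANKL library. It spans 156775408 to 156781657 on chromosome 2 (Entrez 98932). Controls held 40.9, 45.6 and 37.7 CPM and K5-RANKL libraries 21.0, 22.8 and 22.3 CPM, with no overlap. Myl9 fell by 0.91 (SE 0.09, 1.88-fold lower, edgeR adjusted p = 7.74e-08). By library totals it was not called, at 0.09.

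Mylk encodes myosin light chain kinase, the calcium-dependent switch of smooth muscle contraction (Entrez 107589, chromosome 16 from 34745199 to 35002436). The controls were almost alike, at 58.7, 58.9 and 58.9 CPM, and the K5-RANKL libraries held 48.7, 46.5 and 51.6 CPM. The groups did not overlap, although the step was small. Mylk fell by 0.27 (SE 0.07, 1.202-fold lower, edgeR adjusted p = 0.00423), and by library totals it rose by 0.73.

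Among the genes for proteins that bind the thin filament, the RNA of Cnn1 and Lmod1 fell and that of Tagln rose. Cnn1 encodes calponin 1, an actin-binding inhibitor of the myosin motor and a marker of mature smooth muscle (Entrez 12797, chromosome 9 from 22099221 to 22109221). Controls held 41.6, 39.5 and 36.4 CPM, and K5-RANKL libraries 13.6, 18.1 and 19.1 CPM. All 3 K5-RANKL libraries lay far below the controls, K5-RANKL 1 lowest. Cnn1 fell by 1.21 (SE 0.11, 2.32-fold lower, edgeR adjusted p = 1.36e-07), and by library totals it stood at -0.22 and was not called (edgeR adjusted p = 0.0867).

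Tagln encodes transgelin, also called SM22 alpha, a calponin relative that crosslinks actin (Entrez 21345, chromosome 9 from 45929628 to 45936058). Controls held 59.8, 58.0 and 58.4 CPM and K5-RANKL libraries 85.05, 88.9 and 99.01 CPM. Every K5-RANKL library was above every control. Tagln rose by 0.63 (SE 0.08, 1.55-fold, edgeR adjusted p = 1.31e-06), and by 1.63 by library totals.

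Lmod1 encodes leiomodin 1, which nucleates actin filaments in smooth muscle (Entrez 93689, chromosome 1 from 135324813 to 135368065). Controls held 10.2, 9.72 and 8.92 CPM and K5-RANKL libraries 5.56, 6.74 and 7.04 CPM. The groups were separate. Lmod1 fell by 0.58 (SE 0.14, 1.49-fold lower, edgeR adjusted p = 0.00126). By library totals it rose by 0.42 (edgeR adjusted p = 0.0124).

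Des encodes desmin, the intermediate filament protein of smooth, cardiac and skeletal muscle (Entrez 13346, chromosome 1 from 75360292 to 75368579). Controls held 9.68, 8.25 and 10.95 CPM, and K5-RANKL libraries 21.9, 22.6 and 16.96 CPM. All K5-RANKL libraries were above all controls, K5-RANKL 3 least so. Des rose by 1.08 (SE 0.13, 2.11-fold, edgeR adjusted p = 2.2e-06), the highest fold change of the 10 genes, and by 2.08 by library totals.

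RNA of skeletal muscle, which also makes desmin, differed between the libraries. The 18 skeletal muscle genes of the marker list summed to 133, 17.5 and 173 CPM in controls and to 287, 354 and 216 CPM in K5-RANKL libraries. The order of the 6 libraries by this sum was the same as their order by Des. In control 2, where the sum was 17.5 CPM, Des was still at 8.25 CPM. Of 17 skeletal genes tested 2 rose (Mb, the myoglobin gene, and Neb, the nebulin gene) and 15 missed the threshold (median 1.25). Of all genes tested 34.2% rose and 32.1% fell. No gene of the list was at 0 in all libraries. The highest of the list was Myh4, a fast myosin heavy chain gene, at 18.9 ± 15.4 and 51.8 ± 7.53 CPM (SD, n = 3 each). The part of skeletal muscle RNA in the rise of Des was not tested.

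Oxtr encodes the oxytocin receptor, through which myoepithelial cells of the mammary gland are made to contract (Entrez 18430, chromosome 6 from 112473683 to 112491035). It was the scarcest of the 10 genes, with 29, 25 and 12 counts in controls and 31, 12 and 12 in K5-RANKL libraries. That is 2.67, 2.45 and 0.939 CPM against 1.29, 0.642 and 0.559 CPM. Control 3 lay below K5-RANKL 1, so the groups overlapped. Oxtr fell by 1.21 (SE 0.41, edgeR adjusted p = 0.0192), a call that rested on single libraries. Left out in turn, control 1 gave an edgeR adjusted p = 0.103, control 2 gave 0.0881, K5-RANKL 2 gave 0.0553 and K5-RANKL 3 gave 0.0661. By library totals Oxtr stood at -0.21 (edgeR adjusted p = 0.626).

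**Figure D2:**
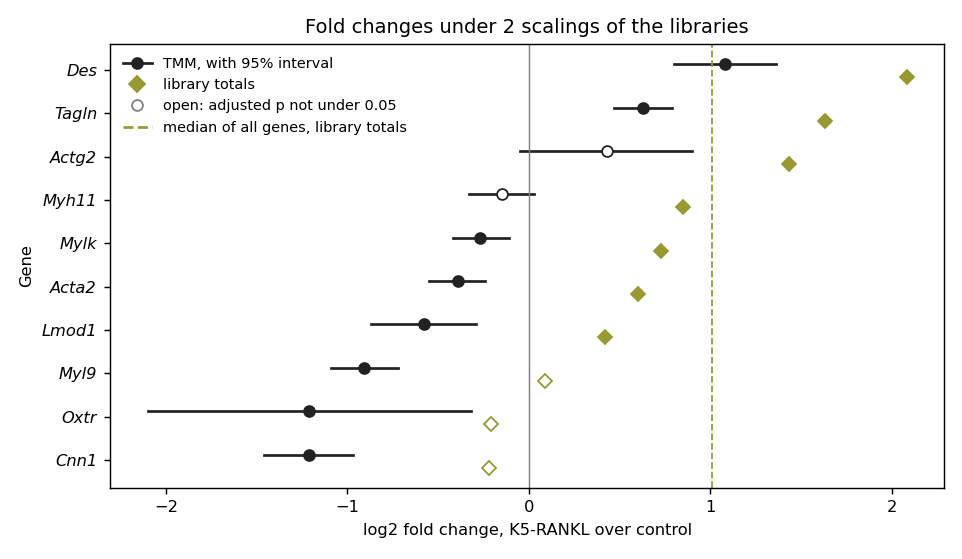
Log2 fold change (x axis, K5-RANKL over control) of the 10 genes under TMM scaling (circles, with 95% intervals) and by library totals (diamonds); open symbols did not pass an adjusted p of 0.05. The order of the genes is the same under both, from Cnn1 and Oxtr lowest to Des highest, while library totals place each gene higher; the dashed line is the median of all genes by library totals, 1.01.

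Per kilobase of annotated exon, Acta2 was the most abundant of the 10 in both groups, at 75.7 ± 1.58 CPM per kb for controls against 57.6 ± 3.54 for K5-RANKL (SD, n = 3 each). Next in controls came Myl9, at 35.6 ± 3.39, and then Tagln, at 29.5 ± 0.480. In K5-RANKL libraries Tagln, at 45.8 ± 3.63, stood above Myl9, at 19.0 ± 0.772, with no overlap in either group. Cnn1 and Myh11 overlapped in controls, at 14.3 ± 0.954 and 12.1 ± 1.11 CPM per kb. In K5-RANKL libraries Myh11, at 10.9 ± 0.858, lay above Cnn1, at 6.18 ± 1.08. Other neighbours in the order whose libraries overlapped were Des with Lmod1 in controls, and Cnn1 with Des, Des with Mylk and Actg2 with Lmod1 in K5-RANKL libraries. Oxtr was lowest in both groups, at 0.422 ± 0.197 and 0.173 ± 0.0832 CPM per kb.

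The make-up of the contractile transcripts was then compared inside each library, as counts per 100 counts of Acta2, which needs no scaling of libraries. Of the 9 other genes, 4 were higher and 3 lower relative to Acta2 in K5-RANKL libraries with no overlap, and 2 overlapped (Myh11 and Oxtr). Among 13824 genes with a count in every library, 57.6% were higher and 16.1% lower relative to Acta2 in this sense, 73.8% in all. In an exact permutation test of 3 against 3 libraries, two-sided, the separated ratios had p = 0.1, the smallest this design allows, and an adjusted p of 0.114 over the 16 ratios computed.

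Tagln was at 35.3, 35.7 and 34.96 counts per 100 of Acta2 in controls and at 72.0, 69.5 and 74.2 in K5-RANKL libraries. The controls were close to each other on this measure, and the K5-RANKL libraries stood 2.03-fold higher. Cnn1 moved the other way, from 24.5, 24.3 and 21.8 to 11.5, 14.1 and 14.3 counts per 100 of Acta2, 1.77-fold lower. Myl9 went from 24.2, 28.0 and 22.6 to 17.8, 17.8 and 16.7, 1.42-fold lower, and Lmod1 was 1.14-fold lower, with control 3 at 5.34 just above K5-RANKL 3 at 5.27.

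Des was 2.80-fold higher relative to Acta2, with 5.71, 5.07 and 6.56 counts per 100 in controls and 18.6, 17.6 and 12.7 in K5-RANKL libraries. Actg2 was 1.76-fold higher, from 1.25, 1.27 and 1.59 to 2.88, 1.84 and 2.58. Mylk was 1.09-fold higher, with control 2 at 36.2 and K5-RANKL 2 at 36.3. The ratios of Myh11 (50, 62.3 and 54.2 against 67.2, 61.8 and 67.8) and Oxtr (1.58, 1.51 and 0.562 against 1.09, 0.501 and 0.419) overlapped, with p = 0.2 each by the exact permutation test. Of all counts of the 10 genes, Acta2 made up 34.7% ± 1.18 in controls against 30.2% ± 0.572 after RANKL, and Tagln 12.2% ± 0.311 against 21.7% ± 0.533 (SD, n = 3 each).

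**Figure D3:**
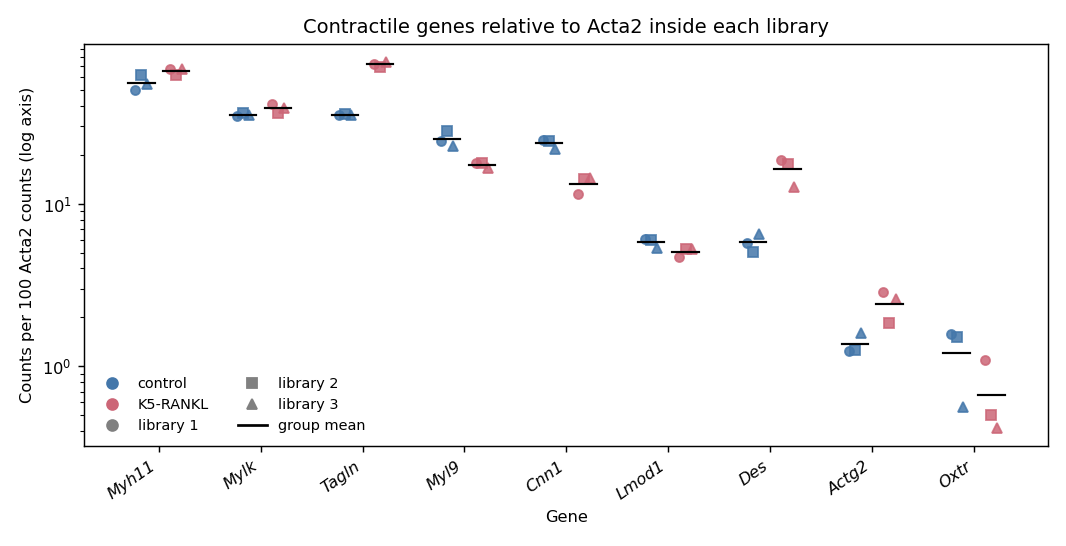
Counts of 9 contractile genes per 100 counts of Acta2 in the same library (log axis); a point is a library, 3 per group, and a bar is a group mean. Mean Tagln moves from 35.3 to 71.9 and Des from 5.78 to 16.3, while Cnn1 moves from 23.5 to 13.3.

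The 10 genes together took 0.0325, 0.0358 and 0.0337% of all counts in controls and 0.0584, 0.0549 and 0.0644% in K5-RANKL libraries. The share was 1.74-fold higher with no overlap (exact permutation test, two-sided, p = 0.1, the smallest possible). Outside the 20 most abundant genes of each library the same sum was 0.0996% ± 0.00234 for controls against 0.0909% ± 0.00537 for K5-RANKL (SD, n = 3 each), lower in every K5-RANKL library. The direction of the total thus depended on whether the abundant genes were in the denominator.

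Each smooth muscle protein has relatives in other cells, and the RNA of the genes for these relatives moved differently. Actb encodes cytoplasmic beta actin, Myh9 the nonmuscle myosin heavy chain IIA, Cnn2 calponin 2, Tagln2 transgelin 2 and Myl12a a broadly made regulatory light chain. All 5 rose, Actb by 1.68 (SE 0.09), Myh9 by 1.17 (SE 0.09), Cnn2 by 1.23 (SE 0.08), Tagln2 by 1.97 (SE 0.09) and Myl12a by 1.06 (SE 0.08), with the highest edgeR adjusted p, 1.48e-08, for Myh9.

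Inside each library, Acta2 was at 33.3, 33.0 and 29.2 counts per 100 of Actb in controls and at 6.77, 7.87 and 8.06 in K5-RANKL libraries, 4.21-fold lower. Cnn1 was at 90.2, 95.7 and 79.8 counts per 100 of Cnn2 in controls and at 11.8, 18.7 and 19.1 in K5-RANKL libraries, 5.46-fold lower. Tagln, although it rose, was 2.52-fold lower relative to Tagln2, at 74.3 ± 1.10 and 29.7 ± 3.97 counts per 100. Myh11 relative to Myh9 was 2.50-fold lower and Myl9 relative to Myl12a 3.93-fold lower. None of these ratios overlapped between groups (exact permutation test, two-sided, p = 0.1 each, adjusted p = 0.114). The denominators themselves rose, and the share of all genes separated relative to each of them was not computed. Whether this separation is particular to the contractile genes was therefore not tested. Of the 11 genes in the list of nonmuscle counterparts 10 rose and 1, Myh14, a nonmuscle myosin heavy chain gene, fell (-0.52), with a median of 1.17 against 0.01 for all genes. By library totals all 11 rose, Myh14 included. Of all genes tested 34.2% rose under TMM and 83.5% by library totals.

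**Figure D4:**
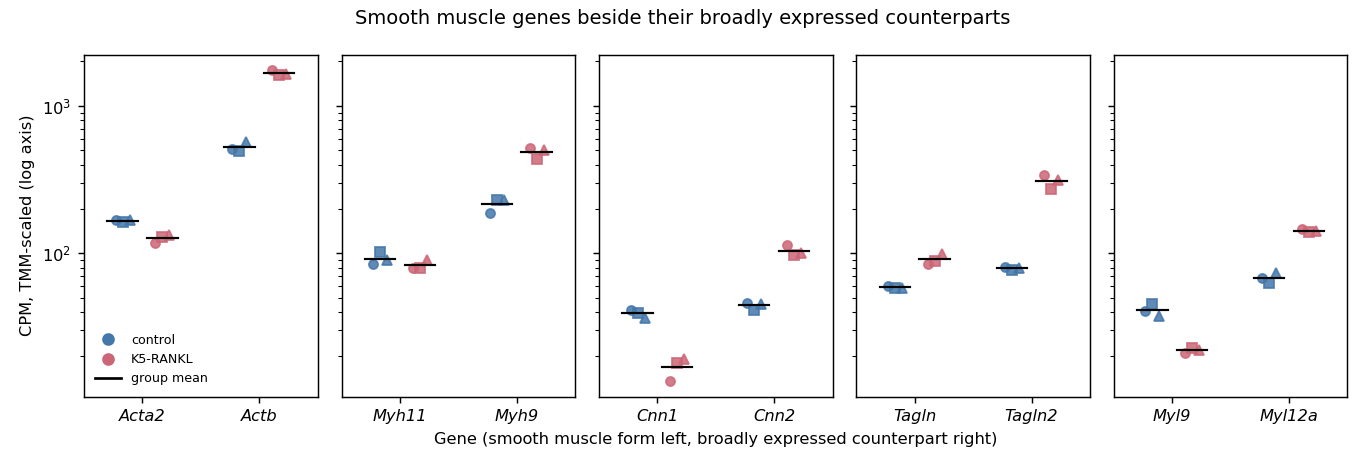
Levels (CPM, TMM-scaled, log axis) of 5 smooth muscle genes, each beside a broadly expressed relative; a point is a library, 3 per group, and a bar is a group mean. The relatives Actb, Myh9, Cnn2, Tagln2 and Myl12a are higher in every K5-RANKL library, and of the smooth muscle genes only Tagln is.

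The rest of the contractile machinery was read from lists. For every list below, the shares to set beside its counts are those of all genes tested. Under TMM 34.2% of all genes rose and 32.1% fell, and by library totals 83.5% rose and 4.97% fell. For the contractile apparatus and its anchors, 28 genes, the counts were 14 higher, 5 lower and 9 not passing (median 0.34). Fhl2, a LIM domain cofactor, rose by 2.13 (SE 0.23), and Flna, which encodes the actin crosslinker filamin A and had the highest level of the list, rose by 1.61 (SE 0.09), from 171 ± 15.1 to 522 ± 52.2 CPM (SD, n = 3 each). Pgm5, encoding aciculin of muscle adhesion sites, fell by 1.78 (SE 0.12, edgeR adjusted p = 1.09e-09). Others that fell included Smtn (-0.64), Hspb6 (-1.12) and Csrp2 (-0.28), of which Smtn encodes smoothelin of contractile smooth muscle and Hspb6 a small heat shock protein of muscle. Caldesmon (Cald1) and beta tropomyosin (Tpm2) stood at -0.08 and -0.01 and did not pass. By library totals 26 rose and 1, Pgm5, fell, at -0.78.

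Among genes that set light chain phosphorylation or act with serum response factor, 14 could be tested: 3 rose, 4 fell and 7 missed the threshold (median 0.01). Mkl1, a myocardin-family cofactor of serum response factor, rose by 0.78 (SE 0.09), Rhoa, a small GTPase upstream of it, by 0.44 (SE 0.07), and Srf itself by 0.23 (SE 0.08, edgeR adjusted p = 0.0234). Ppp1cb, the catalytic subunit of myosin phosphatase, fell by 0.62 (SE 0.08). Myocd, encoding myocardin, had too few counts to test, with 3, 1 and 2 counts in controls and 2, 3 and 3 in K5-RANKL libraries. By library totals 12 of the 14 rose and 0 fell, where 83.5% of all genes rose and 4.97% fell.

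Of 17 receptors, G proteins and channels of contraction tested 9 fell, 4 rose and 4 missed the threshold (median -0.25). Chrm3, the muscarinic receptor that drives salivary secretion, fell by 1.57 (SE 0.11), from 30.1 ± 2.81 to 10.2 ± 1.11 CPM. The endothelin receptor gene Ednra rose by 1.71 (SE 0.15), from 3.51 ± 0.181 to 11.6 ± 1.48 CPM (SD, n = 3 each). Itpr2, an inositol trisphosphate receptor gene with the highest level of the list, fell by 0.25 (SE 0.09). Acinar cells, which use Chrm3 and Itpr2, had all 10 of their markers lower, with a median of -2.27 and a summed level of 180064 to 235478 CPM in controls and 22085.9 to 31261.8 CPM in K5-RANKL libraries; the part of these cells in the falls of Chrm3 and Itpr2 was not tested. By library totals 12 of the 17 rose and 1, Chrm3, fell, where 83.5% of all genes rose and 4.97% fell.

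**Figure D5:**
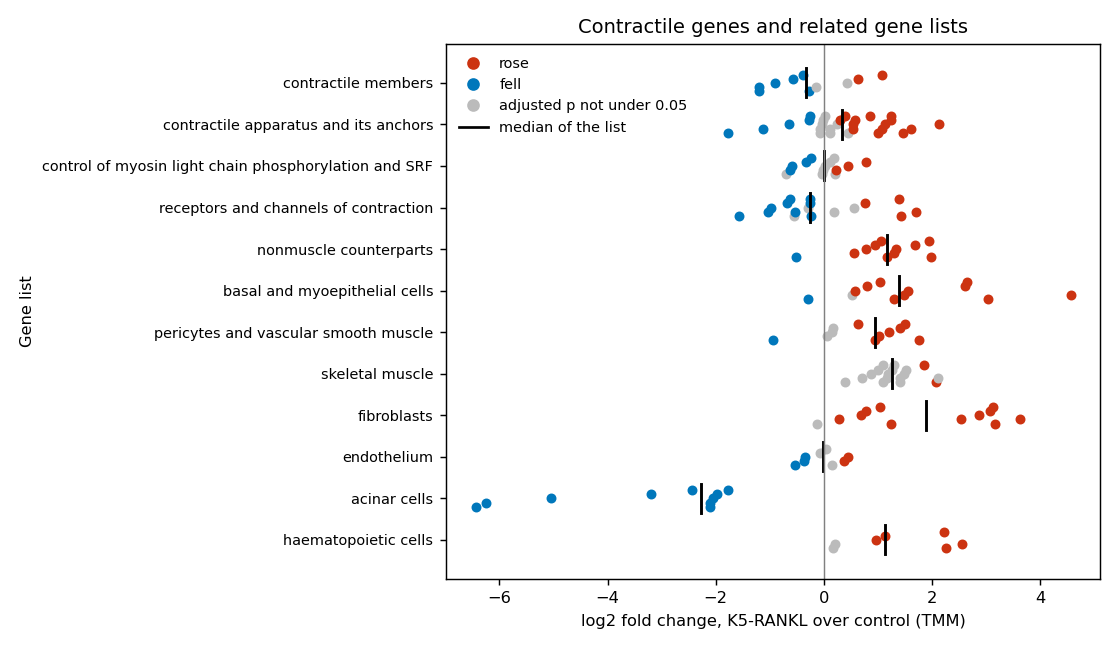
Log2 fold change (TMM, x axis) of each tested gene in the contractile group and 11 related lists; points are genes, coloured by call at an adjusted p of 0.05, and black bars are medians. The contractile group has a median of -0.33, and the lists of basal and myoepithelial cells and of pericytes and vascular smooth muscle have medians of 1.39 and 0.94.

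The markers of the cells that make the contractile genes went largely the other way. Of 12 basal and myoepithelial markers 10 rose, 1 fell and 1 missed the threshold (median 1.39), and none was at 0. The list summed to between 429 and 475 CPM in controls, and to 1543, 889.5 and 1459 CPM in K5-RANKL libraries 1, 2 and 3. Krt17 rose by 4.56 (SE 0.47), Krt5, the highest of the list in K5-RANKL libraries but not in controls, by 3.03 (SE 0.43), and Itga6, an integrin gene, fell by 0.29 (SE 0.08). Acta2 was at 470, 460 and 470 counts per 100 of Krt14 in controls and at 43.7, 95.2 and 55.2 in K5-RANKL libraries, 7.62-fold lower. Krt14 itself was at 134 CPM in K5-RANKL 2, the library with the highest ratio, and at 270 and 242 CPM in K5-RANKL 1 and 3.

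Of 11 pericyte and vascular smooth muscle markers tested 7 rose, 1 fell and 3 missed the threshold (median 0.94), and the list of 12 summed to between 106 and 125 CPM in controls and between 188 and 214 CPM in K5-RANKL libraries. Gja4, a connexin gene, rose by 1.76 (SE 0.18), Pdgfrb, the pericyte growth factor receptor gene, by 1.40 (SE 0.09), and Kcnj8, a potassium channel gene, fell by 0.95 (SE 0.15). Acta2 was at 1171, 925 and 864 counts per 100 of Rgs5, a pericyte regulator of G protein signalling, in controls and at 234, 343 and 435 in K5-RANKL libraries, 2.995-fold lower. The ratios of Acta2 to Krt14 and to Rgs5 were separate between groups (exact permutation test, two-sided, p = 0.1 each, adjusted p = 0.114). Krt14 and Rgs5 themselves rose, by 2.6 and 1.21. The share of all genes separated relative to them was not computed.

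Of 12 fibroblast markers 11 rose and 1, Dcn, missed the threshold, with median 1.89 and a summed level of 676 to 886 CPM in controls and 3339 to 3906 CPM in K5-RANKL libraries. Postn, encoding periostin, rose by 3.62 (SE 0.10), and Col3a1, a collagen gene with the highest level of the list in K5-RANKL libraries but not in controls, by 3.13 (SE 0.15). Activated fibroblasts can make Acta2 and Tagln, and the part of fibroblasts in the rise of Tagln was not tested. Of 8 endothelial markers 2 rose, 3 fell and 3 missed the threshold (median -0.02). The 7 haematopoietic markers gave 5 that rose and 2 that missed it (median 1.13). By library totals the medians were 2.39 for the basal and myoepithelial list, 1.93 for pericytes and vascular smooth muscle, 2.88 for fibroblasts and 0.67 for the 10 contractile genes, the lowest of these medians on either scale.

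Genes outside the group that followed Acta2 most closely over the 6 libraries were Osbp2, Iars2, Slc25a37, Entpd5 and Kctd6, with Pearson r of log2(CPM + 0.5) between 0.995 and 0.998. The 6 points share their library scaling and fall into the 2 groups, and 1545 of 13288 genes compared in this way had an r above 0.95. All 5 fell, Osbp2 most, by 1.80 on the log2 scale (edgeR adjusted p = 3.39e-05). Relative to the mean of the other libraries of its group, K5-RANKL 3 was above for 8 of the 10 contractile genes, with a median of 0.15 log2. The other 5 libraries stood between -0.09 and 0.03.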

How the data were processed

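The authors deposited raw counts of reads per gene, whole numbers that were not normalized. Libraries were strand-specific and made from 250 ng of RNA, per the labels' protocols. Per the submitters' processing notes, STAR was the aligner and mm10 the build. With the counter and its strand setting not given in the sources used here, counts of genes that overlap on either strand are uncertain. Libraries totalled 13875951 to 17921815 counts. Groups follow the genotype label, and replicate numbers follow accession order.

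Genes were filtered with edgeR's filterByExpr (minimum count of 10), scaled by TMM and compared, two-sided, in edgeR's quasi-likelihood test (robust), with Benjamini-Hochberg adjustment over all 14044 genes tested. Standard errors are the fold change over the square root of F. Ratios of counts were tested by exact permutation. Members and lists were chosen with earlier results of these data known. Named list genes are the called gene with the largest change in each direction and the gene with the highest mean CPM over the 6 libraries; the genes of the ratios are named too, and Neb, Smtn, Hspb6, Csrp2, Cald1, Tpm2, Rhoa, Srf, Myocd and Dcn were named after their values were seen. A few genes under this rule are not reported here. Exon lengths come from GENCODE M21 and positions from RefSeq GRCm38.p6. In single libraries 3 counts came to between 0.125 and 0.295 CPM. Versions: edgeR 4.0.16, DESeq2 1.42.0, limma 3.58.1, R 4.3.3. Alternatives were other scalings and filters, DESeq2, limma voom and leaving out each library.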

Additional observations from a re-analysis of the deposited data

How the results depend on the processing

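By library totals only, 7 genes rose and 0 fell in place of 2 and 6, and the median log2 fold change was 0.67 in place of -0.33; Acta2 stood at 0.60, Myh11 at 0.85, Mylk at 0.73, Myl9 at 0.09 and Lmod1 at 0.42, each opposite to its TMM value. The TMM factors were 0.6768 to 0.7348 in controls and 1.322 to 1.469 in K5-RANKL libraries. The summed share of counts was 1.74-fold higher over all counts and 0.91-fold outside the 20 most abundant genes. With RLE, upper-quartile scaling, TMM without the 20 most abundant genes, no low-count filter, DESeq2 or limma voom, 2 genes rose and 6 fell. With at least 50 counts in 3 libraries 2 rose and 5 fell, Oxtr and Actg2 not being tested. Leaving out 1 library gave 2 to 3 genes higher, 5 to 6 lower and medians from -0.37 to -0.31; without control 1 the 6 included Myh11 and not Oxtr. Separated ratios numbered 14 of 16, and 14 to 15 with a library left out. No paired analysis was possible because the labels give no replicate numbers shared between groups.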
